A study of Mus musculus with 36 samples.

Results

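The 10 genes described here encode the cytosolic heat shock chaperones and were chosen by name from a count table of mouse embryonic fibroblasts. They are the stress-inducible HSP70 copies Hspa1a and Hspa1b, the constitutive HSP70 Hspa8, the HSP110 gene Hsph1, the J protein genes Dnajb1 and Dnaja1, the HSP90 pair Hsp90aa1 and Hsp90ab1, the small heat shock protein gene Hspb1, and the co-chaperone gene Bag3. Each name stood on its own row, so the members were 10 of 36856 gene symbols, and all 10 were among the 16065 genes that passed the filter on low counts.

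The 36 libraries fell into 12 groups of 3: WT and PERK -/- cells, each given DMSO (the solvent), thapsigargin, BtdCPU, halofuginone, BtdCPU with thapsigargin, or halofuginone with thapsigargin. PERK is the eIF2 alpha kinase of the endoplasmic reticulum (ER), and thapsigargin stresses the ER by blocking its calcium pump. BtdCPU is known as an activator of the eIF2 alpha kinase HRI, and halofuginone, a prolyl-tRNA synthetase inhibitor, as one of the kinase GCN2. The series title places the comparison in PERK-deficient cells in which another kinase of this pathway is switched on by a compound. Per the labels, the cells were a fibroblast line named only MEF. The labels give no PERK allele, no clone or second line of either genotype, and no dose, exposure time or batch, so the genotype and the line cannot be told apart. Nothing in the labels says that the 3 libraries of a group came from separate cultures, so p-values measure only the spread between these libraries, which may be technical.

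HSP70 proteins bind exposed hydrophobic stretches of unfolded polypeptides and release them in cycles of ATP hydrolysis, which J proteins start and which HSP110 proteins and BAG-domain proteins such as BAG3 end by exchanging the nucleotide. HSP90 takes over later folding steps of kinases and steroid receptors, and small heat shock proteins such as HSPB1 hold unfolded protein without using ATP. In the heat shock response, damaged protein draws HSP70 and HSP90 off the transcription factor HSF1, which then binds heat shock elements, inverted repeats of GAA units, in the promoters of these genes.

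Library totals ran from 32454257 to 37178107 counts. The targeted gene Eif2ak3, which encodes PERK, stood at 31.1 ± 1.1 CPM (SD, n = 3) in WT and 9.95 ± 0.76 CPM (SD, n = 3) in PERK -/- DMSO libraries, and in all 6 treatments every PERK -/- library lay under every WT library. CPM here means counts scaled by library size and edgeR's TMM factors. The fibroblast label was checked against 7 markers, whose summed group means ran from 13985 to 31840 CPM and stood at 25603 ± 4663 CPM (SD, n = 3) in WT and 15903 ± 1800.4 CPM (SD, n = 3) in PERK -/- DMSO libraries. Of 11 markers of other cell types, Tubb3 moved most, from 18.1 CPM in WT halofuginone to 217 CPM in WT thapsigargin libraries (60.4 CPM in WT DMSO), and the other 10, including Ptprc, Epcam, Pecam1, Myod1 and Rbfox3, had group means of 2.98 CPM or less, so that the summed level ran from 21.1 to 219 CPM. The part of that movement in the results below was not tested.

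Hspa1a and Hspa1b are near-identical copies: their coding sequences matched at 99.43% of 1926 aligned positions, and 47.1% of the 100-base windows of the Hspa1a transcript also occurred in Hspa1b. The authors' counting could therefore have split reads between them, and each copy's value is uncertain. Hspa8 overlaps the small nucleolar RNA genes Snord14c, Snord14d and Snord14e, and Dnaja1 overlaps Gm6297 and Mir207, and how shared reads were assigned is not given in the sources used here. Hspb1 is shown beside them because it was the member that moved furthest in the opposite direction to the HSP70 copies. The sequences are the 150 bases before the transcript start, 5′ to 3′, from RefSeq on GRCm38.p6, and capitals mark each 2-unit heat shock element, GAANNTTC or TTCNNGAA.
Hspa1a: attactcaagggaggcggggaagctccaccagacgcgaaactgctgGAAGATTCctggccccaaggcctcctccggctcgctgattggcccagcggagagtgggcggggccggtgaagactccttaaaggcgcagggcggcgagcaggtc
Hspa1b: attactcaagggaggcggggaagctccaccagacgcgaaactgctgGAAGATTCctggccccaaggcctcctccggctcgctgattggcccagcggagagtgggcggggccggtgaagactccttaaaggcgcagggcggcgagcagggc
Hspb1: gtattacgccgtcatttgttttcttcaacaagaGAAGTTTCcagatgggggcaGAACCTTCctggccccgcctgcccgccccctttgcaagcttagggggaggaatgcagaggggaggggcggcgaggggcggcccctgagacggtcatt
The Hspa1a stretch lies at chr17:34972157-34972306 on the minus strand, the Hspa1b stretch at chr17:34959239-34959388 on the minus strand, and the Hspb1 stretch at chr5:135887769-135887918 on the plus strand. The 2 copies differed at 1 base of these stretches and at 3 of the 250 bases before the start, and in both the element began 104 bases before the start. In Hspb1 the elements began 117 and 97 bases before it.

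Over 32851 promoter windows of 300 bases (250 before the start and 50 after it), 15.1% held a 2-unit element in either form, each of which reads the same on both strands. A 3-unit element, GAANNTTCNNGAA or its reverse complement TTCNNGAANNTTC, contains the 2-unit form and was in 0.603% of the windows. Windows matched 7 of the 10 members by symbol. Besides the 3 genes shown, Hsph1 had 3 2-unit elements and 1 3-unit element in each of its windows, Bag3 had 1 2-unit element, and Dnaja1 had 1 in 1 of its 3 windows. Neither window of Dnajb1 held a match. These are letter matches in short windows and say nothing of the factor's binding.

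Per kilobase of exon, Hsp90ab1 had the highest level of the members in WT DMSO libraries, at 1852 ± 260.4 CPM per kb (SD, n = 3). Hspa8 followed at 376 ± 26.3, Hsp90aa1 at 178 ± 16.4, Hsph1 at 87.2 ± 7.16 and Bag3 at 36.3 ± 5.56 CPM per kb. Dnajb1 (23.4 ± 1.02) and Hspa1b (22.6 ± 1.39) came next and lay within their spread of each other, as did Dnaja1 (9.23 ± 1.32) and Hspa1a (9.18 ± 0.546 CPM per kb). Hspb1 was lowest, at 3.24 ± 0.756 CPM per kb. Exon lengths came from GENCODE gene models of GRCm38, not from the authors' counting, so they set the order between genes only approximately.

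**Figure D1:**
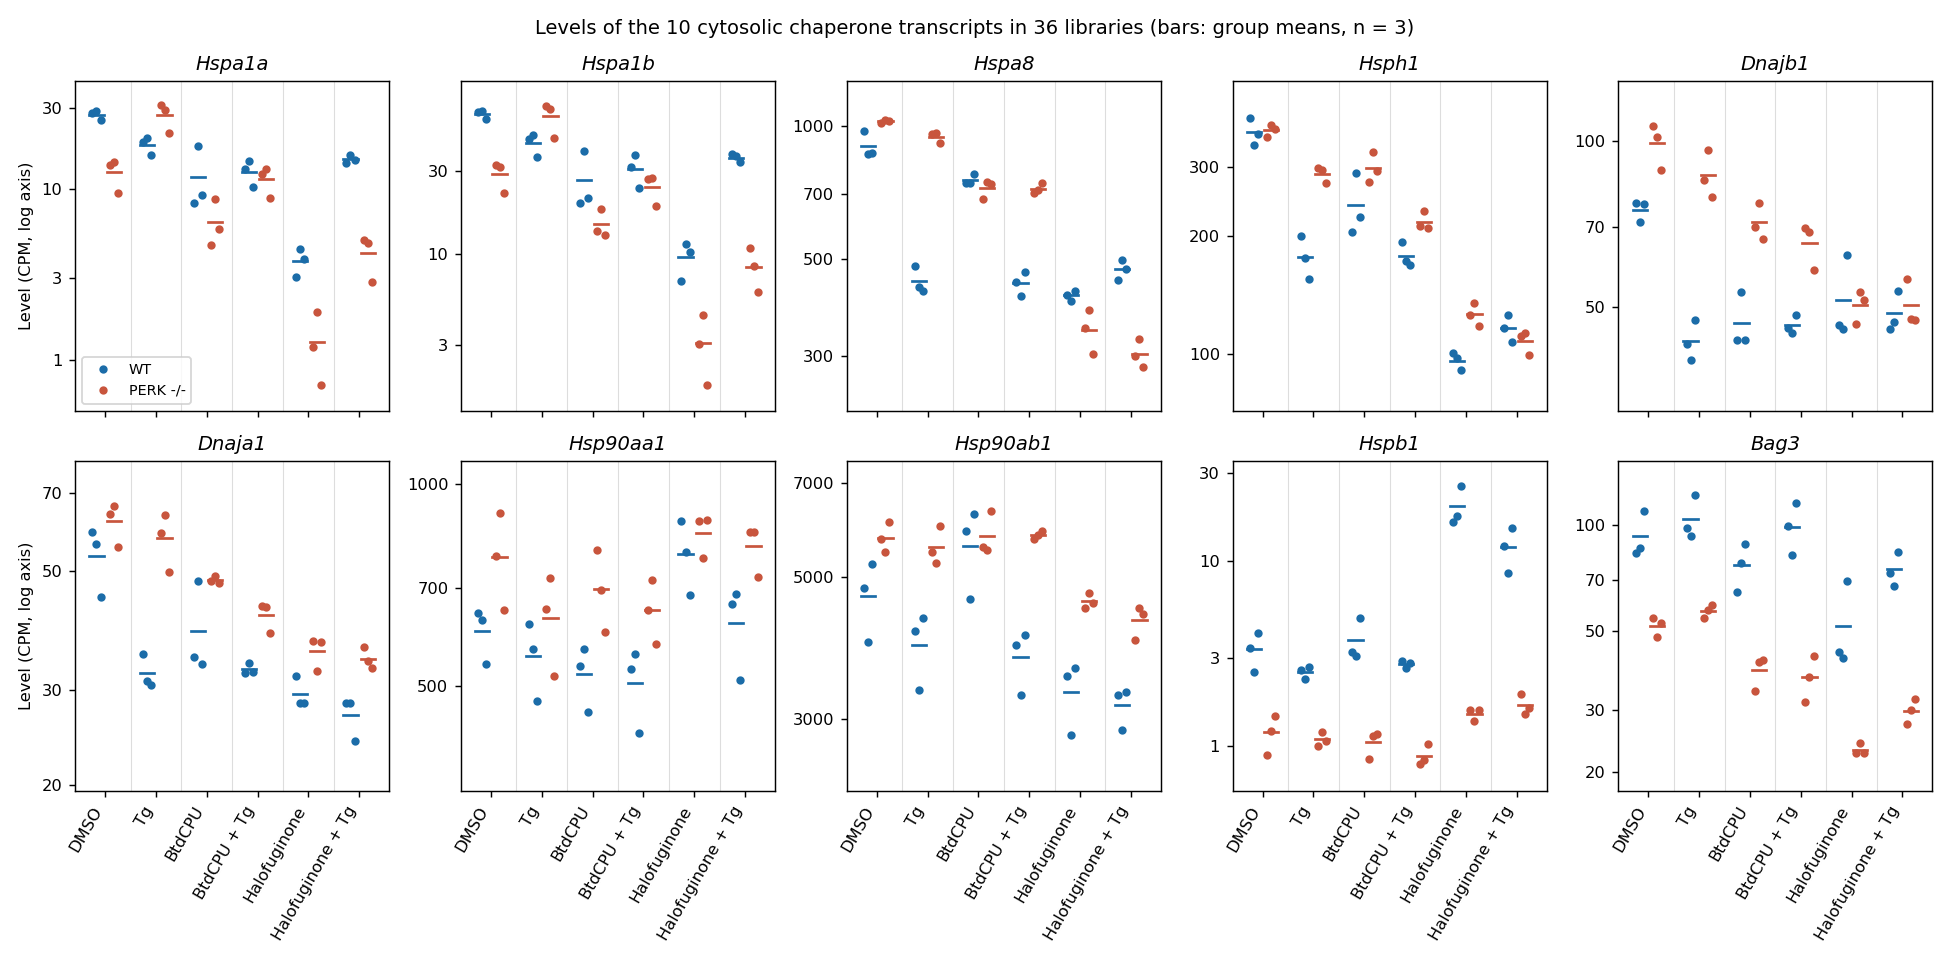
Levels of the 10 chaperone genes in CPM on log axes, 1 panel a gene, with 1 point a library (WT and PERK -/-) and a bar at each group mean (n = 3). Hspa1a and Hspa1b reach their lowest points in PERK -/- halofuginone libraries, and Hspb1 its highest in WT halofuginone libraries.

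Before any treatment the genotypes already differed at these genes. In DMSO, PERK -/- cells had less Hspa1a, Hspa1b, Hspb1 and Bag3 and more Dnajb1, Hsp90aa1 and Hsp90ab1 than WT cells, so 4 members were called lower and 3 higher. A gene is called here at a Benjamini-Hochberg adjusted p below 0.05 over all genes tested, by edgeR's quasi-likelihood test. Of all genes tested, 24.9% were called lower and 24.6% higher in this comparison, and the median log2 difference was 0.10 over the members and 0.02 over all genes. In bulk RNA such as this, fewer cells of one kind and less RNA per cell cannot be told apart.

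Hspa1a stood at 27.8, 28.5 and 25.4 CPM in the 3 WT DMSO libraries and at 13.8, 14.5 and 9.47 CPM in the PERK -/- ones (libraries are listed by replicate number throughout). All 3 PERK -/- libraries lay under all WT libraries, at 46.2% of the WT level (log2 -1.12, SE 0.257, edgeR adjusted p 0.000548). Hspa1b differed by -1.14 (SE 0.251), again with no overlap. Hspb1, whose protein also binds actin, was at 3.4, 2.53 and 4.09 CPM in WT and 0.901, 1.21 and 1.45 CPM in PERK -/- cells, a log2 difference of -1.48 (SE 0.231, edgeR adjusted p 2.75e-06). The PERK -/- values rest on 33, 44 and 54 counts. Bag3, which links HSP70 clients to autophagy, was at 83.4, 86.2 and 109 CPM in WT and 54.5, 48.2 and 52.8 CPM in PERK -/- cells (log2 -0.84, SE 0.157, edgeR adjusted p 3.87e-05).

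The members that were higher in PERK -/- cells differed by less. Dnajb1, the J protein that serves inducible HSP70, was at 77.2, 71.3 and 76.8 CPM in WT and 106, 102 and 88.7 CPM in PERK -/- cells (log2 0.40, SE 0.112, edgeR adjusted p 0.0039). Hsp90aa1 and Hsp90ab1 differed by 0.37 (SE 0.144) and 0.30 (SE 0.116). Neither gene's libraries overlapped between the genotypes, and with the replicate number as a block both were called (edgeR adjusted p 0.000486 and 0.00201). In the fit without the block the calls depended on which libraries were kept. Without WT DMSO replicate 3 the edgeR adjusted p of Hsp90aa1 was 0.14, and without WT DMSO replicate 2 that of Hsp90ab1 was 0.201. Leaving out PERK -/- DMSO replicate 1 or 2 also ended the call of Hsp90aa1, and leaving out PERK -/- DMSO replicate 1 or 3 that of Hsp90ab1, which was not called without the filter on low counts either. Hspa8 at 0.18 (edgeR adjusted p 0.0558), Dnaja1 at 0.21 and Hsph1 at 0.01, with a 95% interval from -0.20 to 0.23, were not called. With the block Hspa8 was called higher (edgeR adjusted p 0.0379). Same-numbered DMSO libraries of the 2 genotypes did not all deviate together, so the block calls in this comparison rest on a pairing that the data do not bear out.

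Thapsigargin alone moved the chaperones in different ways in the 2 genotypes. In WT cells Hspa8, Hsph1, Dnajb1 and Dnaja1 fell and no member was called higher. PERK -/- cells instead had Hspa1a and Hspa1b higher, and only Hsph1 was called lower in the main fit. In WT cells 22.7% of all genes tested were called lower and 24.9% higher, and in PERK -/- cells 12.7% lower and 15.2% higher. The median of the members was -0.57 in WT (all genes 0.02) and -0.11 in PERK -/- cells (all genes 0.05). Ddit3, a target gene of the integrated stress response, changed by log2 4.66 in WT and 1.2 in PERK -/- cells, Atf3 by 6.17 and 0.78, and Atf4 by 1.97 and 0.31.

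In WT cells Hspa8, the HSP70 that cells make without stress, went from 974, 862 and 868 CPM in DMSO to 481, 430.0 and 421 CPM in thapsigargin. Every treated library lay under every control, at 49.3% of the control level (log2 -1.02, SE 0.0808, edgeR adjusted p 6.73e-12). Hsph1, its nucleotide exchange factor, went from 400.3, 340.3 and 364 to 200.4, 176 and 156 CPM (log2 -1.05, SE 0.106, edgeR adjusted p 1.22e-09). The J protein genes Dnajb1 and Dnaja1 changed by -0.79 (SE 0.114) and -0.72 (SE 0.118), each without overlap between the groups. Hspa1a was at 18.8, 19.99 and 15.8 CPM in WT thapsigargin libraries, under all 3 controls, and its log2 difference of -0.58 missed the threshold (edgeR adjusted p 0.0579), as did that of Hspa1b (-0.56, edgeR adjusted p 0.0637). Without the filter on low counts both were called lower (edgeR adjusted p 0.00112 and 0.000136), as was Hsp90ab1, which made 7 members. With the replicate number as a block Hspa1a, Hspa1b and Hsp90ab1 were called lower too (edgeR adjusted p 0.00249, 0.00232 and 0.000399). In the fit on these groups alone both copies were called lower (edgeR adjusted p 0.00554 and 0.00648). Hsp90aa1 (-0.12), Hspb1 (-0.40) and Bag3 (0.16) overlapped between the groups.

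Without PERK, Hspa1a went from 13.8, 14.5 and 9.47 CPM in DMSO to 30.9, 29.2 and 21.3 CPM in thapsigargin, and Hspa1b from 32.3, 31.6 and 22.2 to 70.6, 67.2 and 46.1 CPM. The lowest treated library stood above the highest control for both copies, which rose 2.16-fold (log2 1.11, SE 0.257, edgeR adjusted p 0.00123) and 2.13-fold (log2 1.09, SE 0.251). The treated PERK -/- level of Hspa1a, 27.2 ± 5.16 CPM (SD, n = 3), was close to that of WT cells in DMSO, 27.2 ± 1.62 CPM (SD, n = 3). Hsph1 changed by -0.37 (SE 0.105, edgeR adjusted p 0.0086). Hspa8 was at 958, 961 and 912 CPM, just under its 3 controls at 1016, 1030.0 and 1026 CPM, and the difference of -0.12 was not called (95% interval from -0.28 to 0.05). The other 6 members lay between -0.31 (Hsp90aa1) and 0.14 (Bag3) and were not called. Blocking on replicate number turned the fall of Hsp90aa1 into a call (edgeR adjusted p 0.00339), although these groups did not pair. So did omitting the low-count filter, PERK -/- thapsigargin replicate 2 or PERK -/- DMSO replicate 3 (edgeR adjusted p 0.0298, 0.0326 and 0.0295). Leaving out any other library of these groups did not.

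The difference between the genotypes' responses to thapsigargin, tested as an interaction, was called for 6 members, all with the higher value in PERK -/- cells, against 19.5% of all genes called higher and 18.6% lower. It was 1.69 for Hspa1a (SE 0.361, edgeR adjusted p 0.000347), 1.65 for Hspa1b and 0.90 for Hspa8 (SE 0.113, edgeR adjusted p 1.49e-07). For Hsph1, Dnaja1 and Dnajb1 it lay between 0.60 and 0.69. Hspa8, Dnajb1 and Dnaja1, which fell in WT cells, were not called in PERK -/- cells. The same 6 members were called under each alternative scaling, with DESeq2, and without each of the 12 libraries in turn. Hsp90aa1 (-0.18), Hsp90ab1 (0.21), Hspb1 (0.28) and Bag3 (-0.02) were not called.

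**Figure D2:**
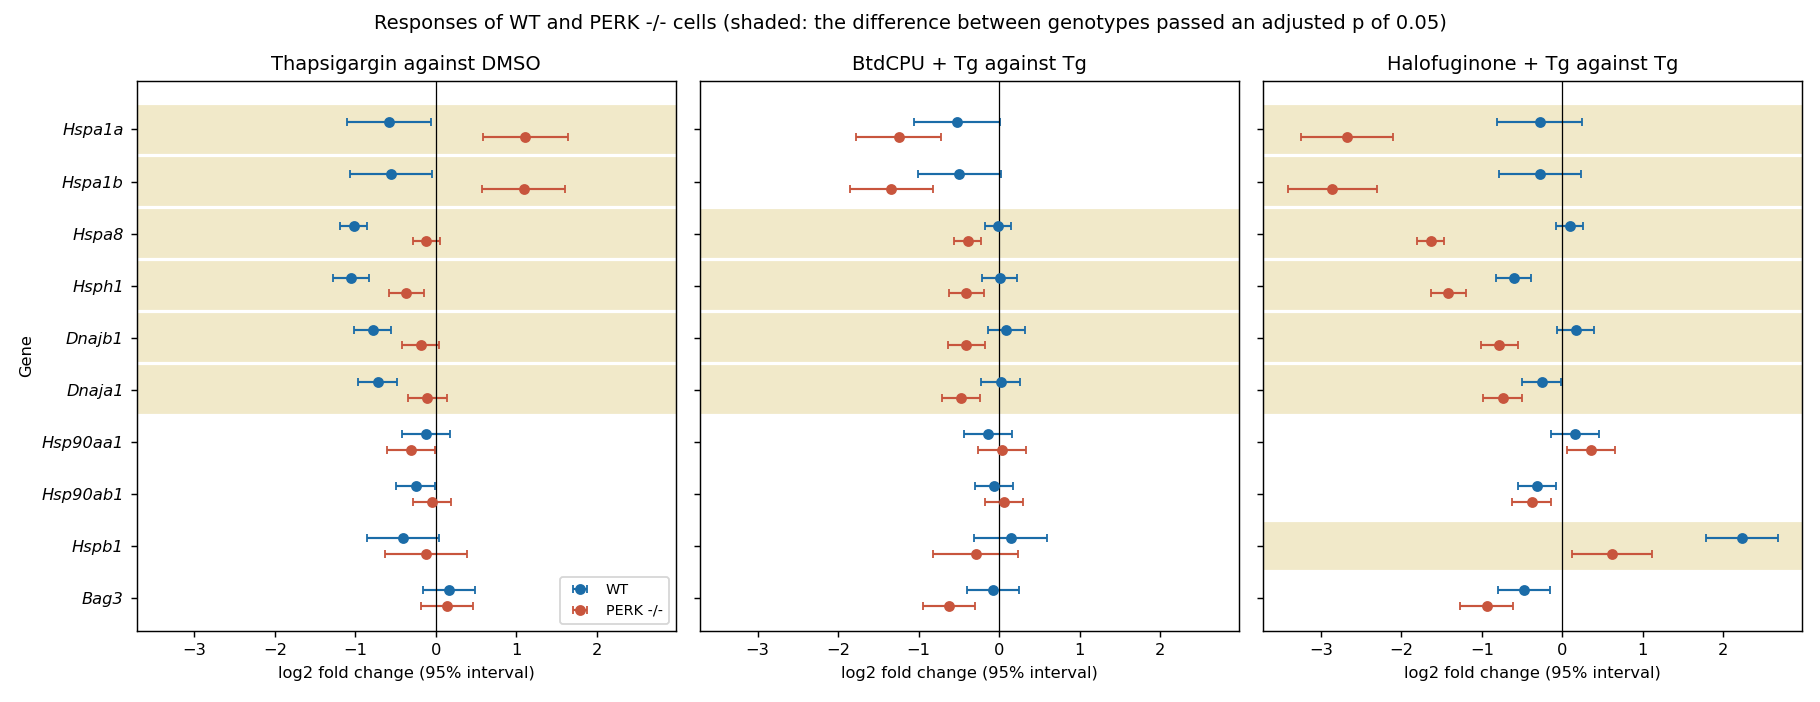
log2 fold changes of the members on the x axis with 95% intervals, in WT and PERK -/- cells, for thapsigargin against DMSO and for BtdCPU or halofuginone added to thapsigargin. Shading marks genes whose responses differed between genotypes at an edgeR adjusted p below 0.05, such as Hspa1a and Hspa1b in the panels of thapsigargin (Tg) and of halofuginone on top of it.

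BtdCPU alone lowered both inducible HSP70 copies, the constitutive Hspa8 and the J protein gene Dnajb1 in both genotypes. In WT cells 6 members were called lower and none higher, against 9.31% and 12.9% of all genes, and in PERK -/- cells 4 were called lower and none higher, against 1.04% and 2.55%. The further members called in WT cells were Hsph1 and Dnaja1. The member medians were -0.37 in WT (all genes -0.01) and -0.39 in PERK -/- cells (all genes 0.00).

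In WT cells Hspa1a stood at 8.34, 17.9 and 9.29 CPM with BtdCPU, under all 3 controls, and Hspa1b at 19.6, 38.9 and 20.8 CPM. The log2 changes were -1.2 (SE 0.258, edgeR adjusted p 0.00101) and -1.26 (SE 0.252). Replicate 2 stood apart from the other 2 treated libraries for both copies and for Hsph1 (205, 290.0 and 223 CPM) and Dnaja1 (34.6, 48 and 33.7 CPM), and without it the change of Hspa1a was -1.63 and that of Hsph1 -0.78, against -0.62 with it. Dnajb1 changed by -0.68 (SE 0.113), Dnaja1 by -0.46 (SE 0.117) and Hspa8 by -0.26 (SE 0.08, edgeR adjusted p 0.0193). The calls of Hspa8 and Dnaja1 ended without WT BtdCPU replicate 1, as did that of Hspa8 without WT DMSO replicate 1 and that of Dnaja1 without WT BtdCPU replicate 3. Both also ended in the fit on these groups alone, and that of Hspa8 without the filter on low counts. Hsp90ab1 was the member with the highest value, 0.26 (edgeR adjusted p 0.106). With the replicate number as a block it was called higher (edgeR adjusted p 0.000647). The block also called Hsp90aa1 (-0.22, edgeR adjusted p 0.0415) and Bag3 (-0.27, edgeR adjusted p 0.0231) lower, which made 9 members. Without WT BtdCPU replicate 2 or WT DMSO replicate 3, Hsp90ab1 was called higher too (edgeR adjusted p 0.0142 and 0.0445).

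Hspa8 in PERK -/- cells went from 1016, 1030.0 and 1026 CPM in DMSO to 681, 746 and 739 CPM with BtdCPU, without overlap (log2 -0.50, SE 0.0801, edgeR adjusted p 0.000102). Hspa1a was at 4.71, 8.74 and 5.84 CPM (log2 -0.97, SE 0.264, edgeR adjusted p 0.0311), Hspa1b changed by -0.96 (SE 0.255) and Dnajb1 by -0.47 (SE 0.112). Hspa8 alone stayed called when PERK -/- BtdCPU replicate 1 or 3, or PERK -/- DMSO replicate 1 or 2, was left out, each of which lowered the count from 4 to 1. Fitted on the groups compared alone, 7 members were called lower, the added ones being Hsph1, Dnaja1 and Bag3, which had values of -0.32, -0.36 and -0.42 in the fit on all libraries.

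No difference between the genotypes' responses to BtdCPU passed the threshold: edgeR called 0 members, DESeq2 also called 0, and 2 had an unadjusted p under 0.05 (Hspa8 and Hsph1). Of all genes, 0.0373% were called higher and 0.162% lower. The difference for Hspa1a was 0.23, with a 95% interval from -0.53 to 0.99, and that for Hspa8 was -0.25, with one from -0.48 to -0.01. Without WT BtdCPU replicate 2 the difference for Hsph1, 0.46, was called (edgeR adjusted p 0.0433).

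Halofuginone gave the largest changes of the HSP70 copies among the single treatments. In WT cells all 10 members were called, 8 lower and 2 higher (Hspb1 and Hsp90aa1), against 33.4% of all genes lower and 34.7% higher. Among PERK -/- libraries 8 were called lower and none higher, against 21% and 21.2%. The median log2 change of the members was -0.85 in WT and -1.07 in PERK -/- cells, where the medians of all genes were 0.00 and 0.00. Scaling by library size alone moved the median over all tested genes by -0.11 in WT cells, and changes are given relative to the TMM scale.

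Hspa1a was at 3.03, 4.46 and 3.92 CPM in WT halofuginone libraries, 14% of the DMSO level (log2 -2.84, SE 0.281, edgeR adjusted p 2.1e-10). The PERK -/- libraries were at 1.19, 1.9 and 0.713 CPM, from 44, 69 and 26 counts, and 10.1% of their DMSO level (log2 -3.31, SE 0.308, edgeR adjusted p 4.07e-10). Hspa1b fell alongside, with log2 changes of -2.73 (SE 0.269) in WT and -3.21 (SE 0.288) in PERK -/- cells. All treated libraries lay far under all controls for both copies and both genotypes.

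The constitutive HSP70 and the partners of HSP70 fell as well. Hspa8 stood at 414, 402 and 422 CPM in WT and 348, 383 and 304 CPM in PERK -/- halofuginone libraries (log2 -1.13, SE 0.0809, and -1.57, SE 0.0818). Hsph1 stood at 101, 97.8 and 91 and 126, 135 and 118 CPM (log2 -1.93, SE 0.109, and -1.55, SE 0.108). Neither gene's treated libraries overlapped its controls in either genotype. Dnajb1 changed by -0.54 in WT and -0.97 in PERK -/- cells, Dnaja1 by -0.85 and -0.80, and Bag3 by -0.85 and -1.17, all of them called.

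The HSP90 pair moved apart under halofuginone in WT cells. Hsp90ab1, the constitutive isoform, changed by -0.50 (SE 0.116, edgeR adjusted p 0.000395), from 4801, 3953 and 5244 to 3495, 2835 and 3601 CPM. Hsp90aa1, the inducible isoform, went from 642, 627 and 539 to 881, 793 and 684 CPM, a change of 0.38 (SE 0.144, edgeR adjusted p 0.02). All 3 treated libraries lay above all 3 controls. That call ended without WT halofuginone replicate 1 or WT DMSO replicate 3 (edgeR adjusted p 0.204 and 0.0992) and under scaling by library size alone (0.25, edgeR adjusted p 0.142). With the replicate number as a block it held (0.38, edgeR adjusted p 0.000124). The deviations of same-numbered libraries correlated at 0.064, 0.151 and 0.229 in this comparison. Hsp90ab1 in PERK -/- cells changed by -0.33 (SE 0.116, edgeR adjusted p 0.0224), not called without PERK -/- halofuginone replicate 1 or 3 or PERK -/- DMSO replicate 3, and Hsp90aa1 was at 0.12, not called. With the block the PERK -/- call of Hsp90ab1 held (edgeR adjusted p 1.48e-05).

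The rise of Hsp90aa1 was called in WT cells only, but its responses did not differ between the genotypes at the threshold (-0.26, edgeR adjusted p 0.335, 95% interval from -0.68 to 0.16). Hspb1 was also called higher in WT cells and not called in PERK -/- cells, with a larger change. It went from 3.4, 2.53 and 4.09 CPM in WT DMSO to 16.3, 17.6 and 25.3 CPM in WT halofuginone libraries, a 5.92-fold rise (log2 2.56, SE 0.214, edgeR adjusted p 5.02e-12). The PERK -/- halofuginone libraries had it at 1.56, 1.37 and 1.56 CPM, overlapping the controls, and its change of 0.33 (SE 0.241) was not called. Every WT treated library thus stood far above every PERK -/- library of the same treatment.

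Between the genotypes the responses to halofuginone differed for 4 members, 3 with the lower value in PERK -/- cells and 1 with the higher, where 17.5% of all genes were called higher and 17.5% lower. For Hspb1 the difference was -2.23 (SE 0.32, edgeR adjusted p 3.49e-06) and for Hspa8 -0.44 (SE 0.113, edgeR adjusted p 0.00286). Those for Dnajb1, -0.42 (edgeR adjusted p 0.0384), and Hsph1, 0.38 (edgeR adjusted p 0.0472), ended in many of the alternatives: neither was called without WT halofuginone replicate 3, WT DMSO replicate 1, PERK -/- halofuginone replicate 2, or PERK -/- DMSO replicate 1 or 2, which left 2 members. Without the filter on low counts Hspa8 and Dnajb1 were not called. With the replicate number as a block within each genotype, Dnajb1 and Hsph1 were both called (edgeR adjusted p 0.0111 for each). For Hspa1a the difference of -0.47 was not called (95% interval from -1.31 to 0.37).

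**Figure D3:**
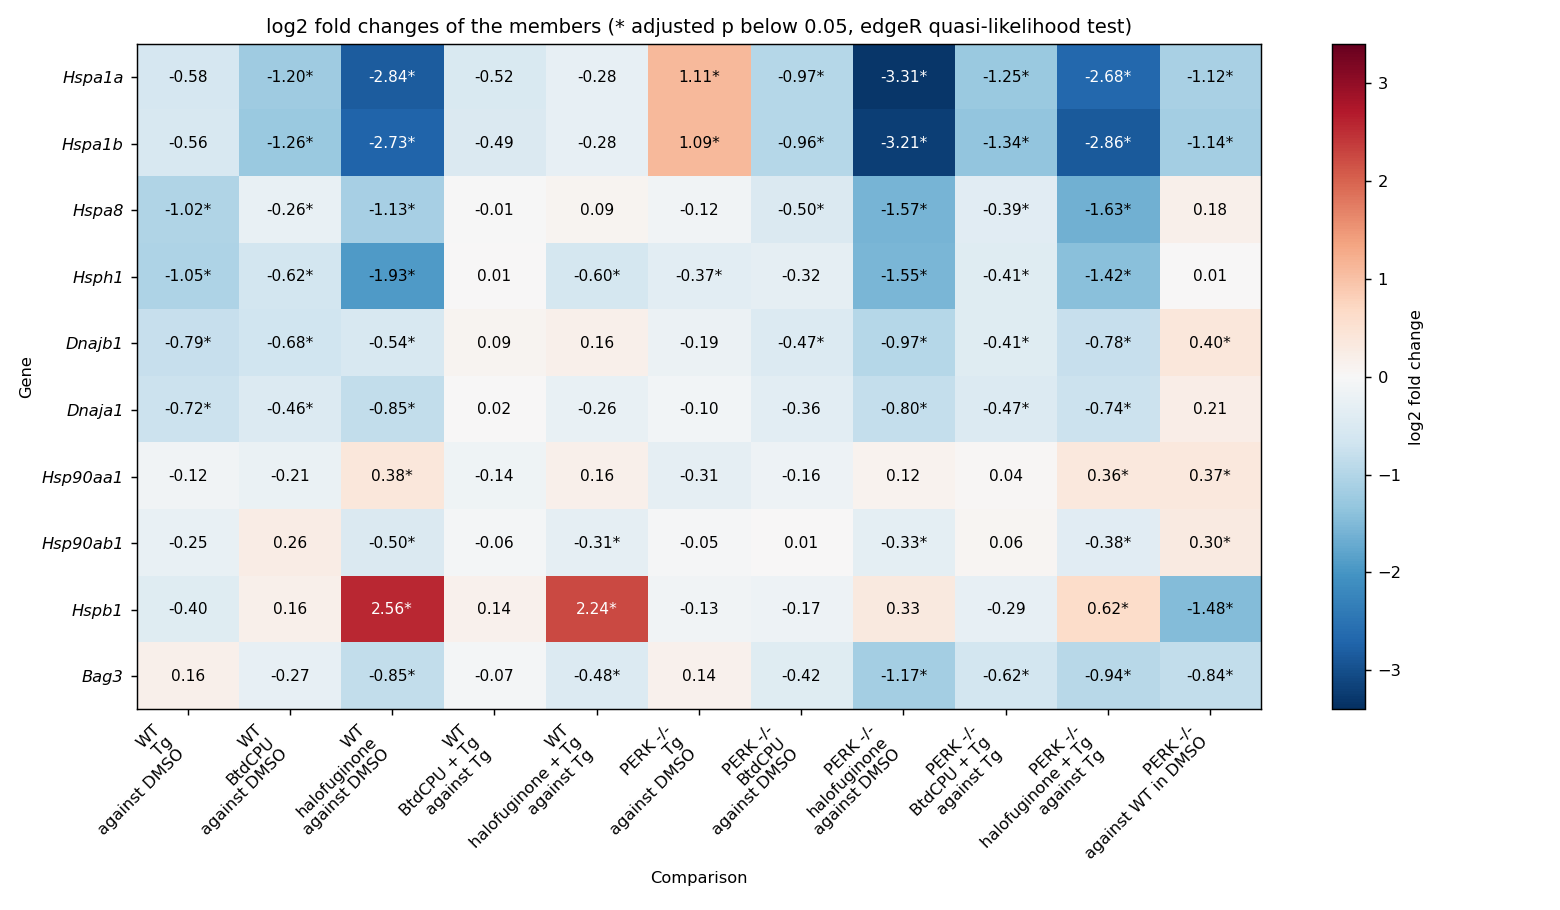
Heat map of the members' log2 fold changes (colour and printed value) in the 11 comparisons of 2 groups, genes in rows, with an asterisk at an edgeR adjusted p below 0.05. The blue cells of Hspa1a and Hspa1b under halofuginone, down to -3.31, and the red cells of Hspb1 in WT cells, up to 2.56, are the extremes.

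Adding BtdCPU to thapsigargin lowered 7 members in PERK -/- cells, among them both HSP70 copies, Hspa8 and Bag3, whereas no member was called in WT cells. In WT cells 0 members were called by edgeR and 0 by DESeq2, with 1 under an unadjusted p of 0.05 (Hspa1a), and 1.29% of all genes were called higher and 1.02% lower. The same-numbered WT libraries of these 2 groups deviated together, and with the replicate number as a block Hspa1a (-0.53, edgeR adjusted p 0.0308) and Hspa1b (-0.50, edgeR adjusted p 0.0294) were called lower, 2 members in all, as they were without the filter on low counts. The PERK -/- comparison called 7 members lower and none higher, against 18.3% and 17.3% of all genes, with a member median of -0.41 (all genes -0.04).

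Hspa1a in PERK -/- cells was at 12.2, 13.2 and 8.89 CPM with both agents, against 30.9, 29.2 and 21.3 CPM with thapsigargin (log2 -1.25, SE 0.258, edgeR adjusted p 0.00028). The libraries of the combination overlapped those of PERK -/- cells in DMSO, at 13.8, 14.5 and 9.47 CPM. Hspa1b changed by -1.34 (SE 0.252) and Bag3 by -0.62 (SE 0.157). Hspa8 went from 958, 961 and 912 to 704, 715 and 743 CPM (log2 -0.39, SE 0.08, edgeR adjusted p 0.000269), and Hsph1, Dnajb1 and Dnaja1 changed by -0.41, -0.41 and -0.47. Hsp90aa1 (0.04), Hsp90ab1 (0.06) and Hspb1 (-0.29) overlapped between the groups. The call of Dnajb1 ended without PERK -/- thapsigargin replicate 2 or replicate 3 of the combination (edgeR adjusted p 0.0811 and 0.08).

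The difference between the genotypes in this step was called, lower in PERK -/- cells, for Hspa8 (-0.38, edgeR adjusted p 0.0164), Hsph1 (-0.41), Dnajb1 (-0.50) and Dnaja1 (-0.50). These 4 compare with 10.1% of all genes lower and 10.7% higher. For Hspa1a and Hspa1b it was -0.73 (edgeR adjusted p 0.163) and -0.84 (edgeR adjusted p 0.0888), not called. With the replicate number as a block within each genotype, both copies were called (edgeR adjusted p 0.016 and 0.00389). Bag3 was called as well (-0.56, edgeR adjusted p 0.00128), which made 7 members. Same-numbered libraries deviated together in the WT but not in the PERK -/- groups of this step. The count depended on single libraries: leaving out any of the 3 PERK -/- or 3 WT libraries of the combination, PERK -/- thapsigargin replicate 1 or 2, or WT thapsigargin replicate 2 brought it to between 0 and 2. Without the filter on low counts none of these 4 was called, and Hspa1a, Hspa1b and Bag3 were called in their place.

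Adding halofuginone to thapsigargin changed all 10 members in PERK -/- cells, 8 lower and 2 higher (Hsp90aa1 and Hspb1), against 27.5% of all genes lower and 25.2% higher. In WT cells 3 were called lower (Hsph1, Hsp90ab1 and Bag3) and 1 higher (Hspb1), against 22.5% and 22.8%. The member medians were -0.86 in PERK -/- (all genes -0.01) and -0.27 in WT cells (all genes 0.00).

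In PERK -/- cells Hspa1a was at 5.0, 4.85 and 2.86 CPM with both agents, 15.6% of the level with thapsigargin (log2 -2.68, SE 0.276, edgeR adjusted p 1.18e-09). In WT cells it was at 14.2, 15.9 and 14.8 CPM with both agents and 18.8, 19.99 and 15.8 CPM with thapsigargin, an overlap, and the change of -0.28 was not called (95% interval from -0.81 to 0.25). Hspa8 showed the same contrast. It was at 300.5, 328 and 283 CPM in PERK -/- (log2 -1.63, SE 0.082, edgeR adjusted p 3.93e-16) and at 448, 496 and 474 CPM in WT cells, where the change was 0.09 (95% interval from -0.08 to 0.26).

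Hsph1 fell in both genotypes, with log2 changes of -1.42 (SE 0.107) in PERK -/- and -0.60 (SE 0.106) in WT cells. Bag3 fell in both as well, with changes of -0.94 and -0.48, and so did Hsp90ab1, with -0.38 and -0.31. In WT cells the calls of Bag3 and Hsp90ab1 both ended without WT thapsigargin replicate 3 or WT replicate 2 of the combination, which left 2 members. Dnajb1 and Dnaja1 changed by -0.78 and -0.74 in PERK -/- cells and stood at 0.16 and -0.26, not called, in WT cells. These WT groups also paired by replicate number, and with the block Dnaja1 was called lower (-0.26, edgeR adjusted p 0.0243).

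Hspb1 went from 2.57, 2.3 and 2.69 CPM with thapsigargin to 12, 8.67 and 15 CPM with both agents in WT cells (4.71-fold, log2 2.24, SE 0.215, edgeR adjusted p 8.99e-10). In PERK -/- cells it went from 1.0, 1.2 and 1.07 to 1.91, 1.5 and 1.62 CPM (1.53-fold, log2 0.62, SE 0.241, edgeR adjusted p 0.0313). The PERK -/- calls of Hspb1 and of Hsp90aa1 (0.36, edgeR adjusted p 0.0366) were narrow. Without PERK -/- replicate 1 of the combination the edgeR adjusted p was 0.0943 for Hspb1 and 0.0687 for Hsp90aa1, and neither was called without PERK -/- thapsigargin replicate 1 or 3. The call of Hsp90ab1 ended without PERK -/- thapsigargin replicate 3 or replicate 1 of the combination, and that of Hsp90aa1 also without replicate 2 of it. With the replicate number as a block these calls held (edgeR adjusted p 0.00724 for Hspb1, 0.000264 for Hsp90aa1 and 8.66e-07 for Hsp90ab1). These PERK -/- groups did not pair by replicate number.

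The interaction for halofuginone on top of thapsigargin was called for 7 members, each with the lower value in PERK -/- cells, against 16.9% of all genes lower and 15.9% higher. It was -2.40 for Hspa1a (SE 0.372, edgeR adjusted p 7.13e-06), -2.58 for Hspa1b, -1.72 for Hspa8 (SE 0.114, edgeR adjusted p 3.14e-12) and -1.62 for Hspb1. Dnajb1, Hsph1 and Dnaja1 followed at -0.95, -0.81 and -0.48. The call of Dnaja1 held only without WT thapsigargin replicate 1, WT replicate 3 of the combination, or PERK -/- thapsigargin replicate 1 or 3 among the leave-outs, and ended in the others. With the replicate number as a block within each genotype, Bag3 was called as well (-0.47, edgeR adjusted p 0.00393, against 0.108 without the block), which made 8 members. Here too same-numbered libraries deviated together in the WT groups alone. The comparisons with thapsigargin and those of thapsigargin with DMSO share the thapsigargin libraries, so their values stand side by side and are not independent of each other.

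Setting both HSP70 copies against Hspa8 shows how the balance of inducible and constitutive HSP70 moved within each library. The CPM of both copies together came to 9.55, 11 and 9.72% of that of Hspa8 in WT DMSO libraries, 13.3, 15.8 and 12.3% with thapsigargin and 2.43, 3.94 and 3.35% with halofuginone. In PERK -/- cells the shares were 4.54, 4.48 and 3.09% with DMSO, 10.6, 10.03 and 7.39% with thapsigargin and 1.22, 1.67 and 0.821% with halofuginone. Every thapsigargin library of both genotypes thus had a higher ratio than every DMSO library of that genotype, although in WT cells the level of Hspa1a itself lay under the controls. Hspa1b gave between 66.6% and 71.3% of the counts of the pair in every group mean.

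Within the HSP90 pair, Hsp90aa1 made up 11.8, 13.7 and 9.32% of the counts in WT DMSO libraries and 20.1, 21.9 and 16% in WT halofuginone libraries, without overlap. In PERK -/- cells the shares were 12, 14.2 and 9.63% and 16.4, 14.1 and 16.2%, and 1 control lay within the range of the treated libraries. The HSP90 pair made up most of the chaperone counts throughout, from 76.8% of the members' summed CPM in WT DMSO to 90.4% in PERK -/- cells given halofuginone with thapsigargin. The summed level of the 10 members was highest in PERK -/- DMSO libraries, 8189 ± 159.9 CPM (SD, n = 3), and lowest in WT libraries with halofuginone and thapsigargin, 4575 ± 162 CPM (SD, n = 3).

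**Figure D4:**
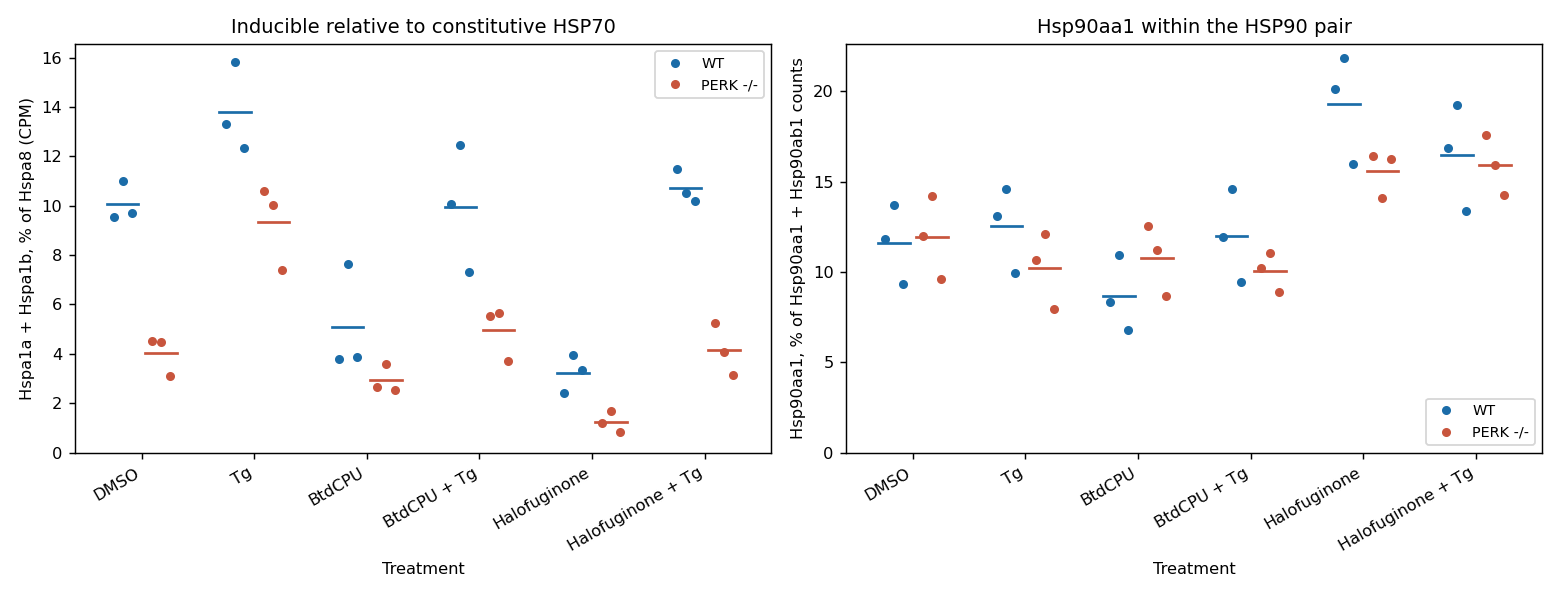
Left, the summed CPM of Hspa1a and Hspa1b as a percentage of Hspa8, and right, Hsp90aa1 as a percentage of the HSP90 pair, by treatment and genotype, with 1 point a library and a line at each group mean (n = 3). On the left the group means are highest with thapsigargin (Tg) within each genotype, and on the right in the treatments that include halofuginone.

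Across the 12 group means the members fell into sets with different patterns. Pearson's r of log2 CPM, given as a description of 12 points that share libraries and scaling, was 0.92 between Hspa8 and Hsph1, 0.92 between Dnaja1 and Dnajb1, and 0.89 between Dnaja1 and Hsph1. Hspa1a was closest to Bag3 after its own copy, at 0.78, and stood at 0.34 with Dnajb1. Hsp90aa1 ran against Bag3 (-0.84) and Hspa1a (-0.71), and its r with its partner Hsp90ab1 was 0.06. Hspb1 ran against Hsp90ab1 (-0.81).

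Among 10564 other genes averaging 2 or more in log2 CPM, those whose group means were most like the summed Hspa1a and Hspa1b counts were Lpin1 (r 0.953), Smad6 (0.952), Dennd3 (0.942), Gm20605 (0.938) and Hspa2 (0.934), each over 12 groups. Hspa2, another HSP70 gene, went from 6.8, 5.81 and 6.43 to 16.1, 14.8 and 15.5 CPM with thapsigargin in PERK -/- cells. For Hsp90aa1 the 5 nearest genes were Ergic2 (0.9749), Rpl7l1 (0.960), Eif4e (0.956), Cops2 (0.953) and Gm6634 (0.951). They were picked for their likeness, so these values describe the choice.

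The wider chaperone system was followed in 9 lists of 59 genes, 57 of which were tested. Under thapsigargin 13 of them were called higher and 13 lower in WT cells, shares close to the 24.9% and 22.7% of all genes. PERK -/- cells had 14 higher and 21 lower, where all genes had 15.2% and 12.7%. Among the lists the largest rises were of ER chaperones, Hspa5, the HSP70 of the ER, by 3.85 in WT and 1.97 in PERK -/- cells and Hyou1 by 3.14 and 1.64, with 4 and 3 of the 7 ER and mitochondrial chaperones called higher and, in PERK -/- cells, 1 lower (Hspd1). All 8 subunits of the TRiC chaperonin, which folds actin and tubulin, were called lower in PERK -/- cells, with a list median of -0.35, Cct6a at -0.62 and Cct3 at -0.44, while in WT cells 1 was called higher (Cct4, 0.30) and none lower.

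Several other genes of the lists, like the HSP70 copies, were called higher under thapsigargin in PERK -/- cells, and others were called lower. Of 5 other heat-inducible genes 4 were called higher and 1 lower, with Dedd2 at 1.2 and Serpinh1, the collagen chaperone, at 0.93. Among 4 tested small heat shock proteins 3 were called higher, led by Cryab (1.54) and Hspb2 (1.08), and among 4 other HSP70 and HSP110 genes 2 rose, Hspa2 (1.28) and Hspa4l (0.83), and 2 fell. Cryab changed by -1.03 in WT cells and its responses differed by 2.57 (edgeR adjusted p 1.04e-06). Hsf1 itself changed by -0.36 in PERK -/- and 0.36 in WT cells, 1 of 2 tested heat shock factors called in each. Of 12 HSP90 co-chaperones 5 were called lower and none higher in PERK -/- cells, with Ppid at -0.86 and Fkbp5 at -0.62. In WT cells 6 of the 12 were called lower and 1 higher, with Fkbp5 at -0.68. WT cells also had Serpinh1 (0.49) and Hspa4l (0.40) called higher, with 2 of the 5 heat-inducible genes lower. All genes had 15.2% higher and 12.7% lower in PERK -/- cells, and 24.9% higher and 22.7% lower in WT cells.

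With halofuginone 27 of the 57 genes were called lower and 17 higher in WT cells (all genes 33.4% and 34.7%), and 21 lower and 11 higher in PERK -/- cells (all genes 21% and 21.2%). Of 8 HSP70 co-factors 7 were called lower in WT cells, among them Hspbp1 (-0.90), and the eighth, Bag5, rose by 1.10, while in PERK -/- cells 4 were called lower and 1 higher (Bag5, 0.98). The HSP90 co-chaperone Fkbp4 changed by -1.39 in WT cells, and its response differed between the genotypes by 1.11, higher in PERK -/- cells. Its list had 6 of 12 lower and 2 higher in WT and 5 lower and none higher in PERK -/- cells. Hspa2 changed by -1.62 in WT and -1.48 in PERK -/- cells. Of 7 other J proteins 6 were called higher and 1 lower in WT cells, and 3 higher and 1 lower in PERK -/- cells, with Dnajb2 at 1.40 and 1.02. The mitochondrial HSP70 gene Hspa9 rose by 1.64 in WT and 0.88 in PERK -/- cells. Under BtdCPU alone 5 of the 57 were called higher and 3 lower in WT cells (all genes 12.9% and 9.31%), Hspa9 again among the higher at 0.89, and in PERK -/- cells 1 higher (Bag5, 0.38) and none lower (all genes 2.55% and 1.04%).

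On top of thapsigargin, BtdCPU called 3 of the 57 lower and none higher in WT cells (Hsp90b1 -0.48, Serpinh1 -0.46 and Stub1 -0.30), but 17 higher and 8 lower in PERK -/- cells. All genes had 1.02% lower and 1.29% higher in WT, and 17.3% higher and 18.3% lower in PERK -/- cells. In the PERK -/- comparison 6 of 8 TRiC subunits were called higher, Cct4 by 0.61, and both tested heat shock factors rose, Hsf1 by 0.52 and Hsf2 by 0.39, while Hspa2 changed by -1.24. The 8 lower genes include Dnaja4, at 4, 0 and 2 counts with both agents and 12, 14 and 1 with thapsigargin. Halofuginone on top of thapsigargin called 23 higher and 17 lower in PERK -/- cells, with Cryab at -2.71 and Hspa2 at -2.33, and 9 higher and 17 lower in WT cells, where all genes had 25.2% higher and 27.5% lower, and 22.8% higher and 22.5% lower. The difference between the genotypes' responses was called higher in PERK -/- cells for 25 of the 57 and lower for 11 (all genes 15.9% and 16.9%), with all 8 TRiC subunits and all 7 ER and mitochondrial chaperones on the higher side. The counts of differing responses, higher then lower, were 10 and 18 for thapsigargin (all genes 19.5% and 18.6%), 10 and 9 for halofuginone (17.5% and 17.5%), and 16 and 4 for BtdCPU added to thapsigargin (10.7% and 10.1%). For BtdCPU alone edgeR called 0 of the 57, and 3 had an unadjusted p under 0.05 (Hspa4l, Hspb6 and Hspa9).

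In DMSO 18 of the 57 genes were called higher and 16 lower in PERK -/- than in WT cells, not far from the 24.6% and 24.9% of all genes. The J protein gene Dnaja4 had 845, 780 and 812 counts in WT and 3, 7 and 9 in PERK -/- DMSO libraries, and at most 22 counts in any PERK -/- library of any treatment (log2 -7.07, edgeR adjusted p 1.84e-16). Hspb6 went the other way, at 3.66, 3.2 and 3.22 CPM in WT and 20.6, 18.8 and 21 CPM in PERK -/- cells (log2 2.58). Both genes were on lists chosen for function, and neither is a member.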

How the data were processed

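RNA from 36 libraries was measured by RNA-seq; per the labels, these were total RNA of mouse embryonic fibroblasts, depleted of ribosomal RNA and selected for mRNA, with strand-specific libraries on a DNBSEQ instrument. The authors deposited estimated counts per gene symbol in 1 table. The submitters' processing notes name GRCm39 and DESeq, while the aligner, the counter, its annotation and its use of strand are not given in the sources used here. Of the deposited values 50.6% were a placeholder of 0.025, and 2.69% of the others were not whole. Counts were rounded, 27 entries whose symbols had turned into date numbers (0.206% to 0.278% of the counts of a library) were left out, and entries sharing 1 of 39 symbols were summed.

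All 36 libraries were fitted in edgeR 4.0.16 (R 4.3.3, limma 3.58.1) with 12 group means, TMM scaling, a filter on low counts by group and robust quasi-likelihood tests, which left 24 residual degrees of freedom. Benjamini-Hochberg adjustment ran over 16065 genes in each of 16 contrasts, 11 between 2 groups and 5 of the difference between the genotypes' responses. The method was tested on simulated data. Alternatives were DESeq2 1.42.0, its size factors in edgeR (RLE), library size alone, no filter, the replicate number as a block, the groups compared alone, the Hspa1a and Hspa1b counts summed, and leaving out each library. Figures were drawn with Python 3.11.15, pandas 2.3.3 and matplotlib 3.10.9.

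The genes named were the 10 members in every contrast, the 2 genes with the largest called change in each of 9 lists of other chaperone genes, the 5 genes most like the HSP70 copies or Hsp90aa1 over group means, Eif2ak3 and stress readouts. The members and lists were chosen with earlier results of these data known. Column names of the table gave genotype, treatment and replicate. Whether the replicate numbers pair libraries was checked by the correlation of same-numbered libraries' deviations from their group means, which passed 0.1 for every pair in WT cells for BtdCPU with thapsigargin against thapsigargin (0.159 to 0.337) and halofuginone with thapsigargin against thapsigargin (0.162 to 0.308), and in no other comparison of treatments. In the WT comparisons of a single agent with DMSO these correlations were 0.041 to 0.068 for replicate 1. For replicates 2 and 3 they were 0.151 to 0.287. Between the genotypes in DMSO they were -0.013, 0.141 and 0.132 for replicates 1, 2 and 3. The main fit had no term for the replicate number. No 2 replicates agreed within sampling noise (smallest chi-square per degree of freedom 9.06).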

Additional observations from a re-analysis of the deposited data

Results flagged for a closer look

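Responses that differed between the genotypes by an interaction term (PERK -/- response minus WT response, log2, edgeR adjusted p below 0.05) are gathered here. For thapsigargin they were 1.69 for Hspa1a, 1.65 for Hspa1b, 0.90 for Hspa8, 0.69 for Hsph1, 0.60 for Dnajb1 and 0.62 for Dnaja1. For halofuginone they were -0.44 for Hspa8, 0.38 for Hsph1, -0.42 for Dnajb1 and -2.23 for Hspb1.

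For BtdCPU added to thapsigargin they were -0.38 for Hspa8, -0.41 for Hsph1, -0.50 for Dnajb1 and -0.50 for Dnaja1. For halofuginone added to thapsigargin they were -2.40 for Hspa1a, -2.58 for Hspa1b, -1.72 for Hspa8, -0.81 for Hsph1, -0.95 for Dnajb1, -0.48 for Dnaja1 and -1.62 for Hspb1. The sign was thus positive for every called member under thapsigargin and negative for every called member when either compound was added to it, in contrasts that share the thapsigargin libraries.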

How the results depend on the processing

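Over 2380 alternative values of single members, none of those called in either setting changed direction, 2206 kept their side of the threshold, 122 lost it and 52 gained it. Without the filter on low counts the members called numbered 7 for thapsigargin in WT cells, 2 for BtdCPU added to thapsigargin in WT cells and 2 for the difference in halofuginone response. With the replicate number as a block they numbered 7 for thapsigargin in WT cells, 4 in PERK -/- cells and 7 for the genotype difference in that response. They numbered 9 for BtdCPU in WT and 7 in PERK -/- cells, and 8 for PERK -/- against WT cells in DMSO. For BtdCPU added to thapsigargin they numbered 2 in WT cells and 7 for the genotype difference in that step. In the comparisons whose WT groups pair, and in the genotype differences built on them, the block changed no other member's call than those given in the report. Fitted on the groups compared alone, BtdCPU in PERK -/- cells called 7. Leaving out 1 library gave 1 to 4 members for BtdCPU in PERK -/- cells, 2 to 4 for halofuginone added to thapsigargin in WT cells, 0 to 1 for the difference in BtdCPU response, 2 to 4 for that in halofuginone response and 0 to 4 for that in BtdCPU added to thapsigargin. Under scaling by library size alone the share of higher among all genes called went from 58.1% to 45.1% for BtdCPU in WT cells, from 55.9% to 80.7% for BtdCPU added to thapsigargin in WT cells, and from 51.6% to 41.4% for the genotype difference in that step. The cause was not tested. Low counts limit Hspb1 in PERK -/- cells and the HSP70 copies under halofuginone.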

Other observations

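Within groups, the libraries that the labels number 3 held the lowest value of Hsp90aa1 in 11 of 12 groups, of Hspa1b and Dnaja1 in 10 and of Hspa1a and Hsph1 in 8, and the highest value of Hsp90ab1 and Bag3 in 10 and of Hspb1 in 8. The labels give no batch or day for these numbers.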
